A study of Homo sapiens with 6 samples.

Results

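The 9 genes described here encode the machinery that builds major histocompatibility complex (MHC) class I molecules and loads them with peptides. They were taken by symbol from a deposited table of 58174 genes: HLA-B, HLA-C, HLA-E, HLA-F, B2M, TAP1, TAP2, TAPBP and NLRC5. Each symbol matched 1 row, and all 9 passed the filter on low counts that left 19040 genes for testing. RNA was sequenced from PC9, an established human lung adenocarcinoma cell line, in 3 libraries labelled as tsRNA-5001a knockdown by an antagomir and 3 libraries labelled as its negative control antagomir. Fragments of transfer RNAs are called tsRNAs, and antagomirs are chemically modified oligonucleotides that pair with a small RNA and block it. The labels name no other treatment, time or dose, and name no separate cultures within a group. The p-values therefore set each group difference only against the spread of these libraries, which may be technical. The tsRNA is not counted in a gene table, so its knockdown was not checked here.

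A class I molecule is a heavy chain, encoded by an HLA gene, bound to the light chain beta-2 microglobulin and to a short peptide. Peptides cut by the proteasome are pumped into the endoplasmic reticulum by the transporter TAP and loaded with the help of tapasin, and the finished complex displays them at the cell surface to T cells and natural killer cells. Interferon raises most of these genes through the transcription factor IRF1 and the transactivator NLRC5. Low class I expression is a known route of immune escape in lung cancer.

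The comparison asks which transcripts differ when tsRNA-5001a is knocked down. HLA-B was higher in every knockdown library without passing the main test, B2M spread 6.53-fold between libraries in a way that cut across the groups, HLA-C had the lowest log2 fold change (-0.52) with overlapping groups, and the other 6 genes lay between -0.21 and 0.14. Of the class I genes, 0 of 9 passed edgeR's quasi-likelihood test at a Benjamini-Hochberg adjusted p of 0.05, where 1.17% of all tested genes did, 1.1% higher and 0.0735% lower in the knockdown. At an unadjusted p under 0.05 there was 1 of the 9, HLA-B, against 16.5% of all genes, 9.77% higher and 6.71% lower in the knockdown. DESeq2 called 1 of the 9 at its adjusted p, HLA-B, where it called 3.68% of all genes and 2.54% as higher. Limma on log2(TPM + 1) called the same gene, where it called 2.09% of all genes and 2.02% as higher. The 9 log2 fold changes had a median of -0.09, beside 0.05 over all genes tested, with 4 above 0 and 5 below. Of all genes tested, 55.9% were above 0. HLA-B was also the only 1 of the 9 whose knockdown and control libraries did not overlap, where 24.3% of all genes did not overlap, 13.4% higher and 10.8% lower in the knockdown.

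Promoters are shown for 4 genes. HLA-B and HLA-C are neighbours on chromosome 6 with similar promoters and differences of opposite sign. B2M and TAP1 hold an exact match to an interferon motif. Of the 9 genes, 7 matched RefSeq's promoter table (GRCh38.p14), which gives TAP1 a pair of starts, so 8 promoters were searched. Each sequence is the 250 bases before the RefSeq start, 5′ to 3′ on the gene's own strand. Capitals mark matches, on either strand, to the core of the interferon-stimulated response element (GAAA, any 2 bases, GAAA), the gamma-activated site TTCNNNGAA, the CCAAT box and TGACG, the core of the X2 box and of cAMP response elements. No match of one motif overlapped a match of another, but 2 matches of the interferon core overlap each other in B2M and in TAP1.
HLA-B (chr6:31357180-31357429, minus strand): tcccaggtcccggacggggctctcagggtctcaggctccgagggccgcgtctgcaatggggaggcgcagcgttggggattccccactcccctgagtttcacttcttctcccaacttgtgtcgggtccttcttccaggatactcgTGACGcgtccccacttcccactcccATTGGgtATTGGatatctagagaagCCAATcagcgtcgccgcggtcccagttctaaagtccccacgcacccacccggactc
HLA-C (chr6:31272093-31272342, minus strand): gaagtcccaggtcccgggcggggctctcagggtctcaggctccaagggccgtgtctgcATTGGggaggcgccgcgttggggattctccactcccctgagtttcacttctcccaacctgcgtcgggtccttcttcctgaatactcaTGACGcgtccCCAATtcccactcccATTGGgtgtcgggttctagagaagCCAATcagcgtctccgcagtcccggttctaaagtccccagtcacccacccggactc
B2M (chr15:44711267-44711516, plus strand): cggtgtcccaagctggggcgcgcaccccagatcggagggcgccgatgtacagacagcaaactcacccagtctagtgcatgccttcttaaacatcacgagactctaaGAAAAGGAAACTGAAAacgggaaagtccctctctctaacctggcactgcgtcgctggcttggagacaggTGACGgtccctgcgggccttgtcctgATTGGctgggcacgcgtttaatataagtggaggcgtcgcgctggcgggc
TAP1 (chr6:32853705-32853954, minus strand): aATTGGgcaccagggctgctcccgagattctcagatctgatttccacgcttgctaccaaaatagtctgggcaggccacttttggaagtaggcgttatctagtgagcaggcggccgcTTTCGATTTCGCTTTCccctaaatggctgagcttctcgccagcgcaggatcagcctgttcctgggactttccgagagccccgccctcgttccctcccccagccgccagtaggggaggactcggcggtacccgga

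The interferon core was in 5 of the 8 promoters, those of B2M, HLA-F, TAP1, TAP2 and TAPBP, and in 3.02% of all 35116 promoters of the table. The CCAAT box was in 5 of 8, those of B2M, HLA-B, HLA-C, HLA-F and TAP1, and in 11240 of the 35116. TGACG was in 4 of 8, those of B2M, HLA-B, HLA-C and TAP2, and in 21.2% of all. The gamma-activated site was in 1 of 8, at the other start of TAP1, and in 6.57% of all. HLA-B and HLA-C were identical at 226 of 254 aligned columns, or 89.0%, whereas HLA-B and B2M were identical at 47.3%. In both HLA promoters TGACG lies upstream of the nearest CCAAT box. HLA-C holds 4 CCAAT matches and HLA-B 3. These are letter matches in a window and show no binding. Only exact matches were counted, so a promoter without one, such as that of HLA-B or HLA-C, may still hold a variant of a motif.

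HLA-B encodes a classical heavy chain, one of the most variable human proteins. It stood at 68.0, 41.5 and 66.6 CPM (counts scaled to library size by TMM) in knockdown libraries 1 to 3, against 37.2, 34.2 and 27.2 CPM in control libraries 1 to 3. Every knockdown library was above every control library, with knockdown library 2 the nearest to the controls. The means were 58.7 ± 14.9 CPM in the knockdown and 32.8 ± 5.14 CPM in the control (SD, n = 3 each), a 1.79-fold difference with a 95% interval of 1.28 to 2.51. On the log2 scale the difference was 0.84 (standard error 0.21), with an unadjusted p of 0.0039 and an edgeR adjusted p of 0.125. DESeq2 gave an adjusted p of 0.0200 and limma on log2(TPM + 1) an adjusted p of 0.0345, while over all 16 alternatives the adjusted p ran from 0.0200 to 0.337.

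HLA-C, the classical heavy chain that also serves as a ligand for killer-cell receptors, had 235, 187 and 97.4 CPM in the knockdown libraries, against 221, 272 and 252 CPM in the controls. Knockdown library 3 was low and knockdown library 1 lay within the control range, so the groups overlapped. The log2 fold change was -0.52 (standard error 0.28, edgeR adjusted p 0.390). Without knockdown library 3 it was -0.24, and without knockdown library 1 it was -0.86. The table's HLA-B gene (ENSG00000234745, chromosome 6, 31269491 to 31357188, minus strand) reaches into the HLA-C gene (ENSG00000204525, 31268749 to 31272130, minus strand), because 1 of its 10 GENCODE transcripts spans both, and 35 exonic bases are shared. On the opposite strand AL671883.3 covers 542 of the 3051 exonic bases of HLA-B, and whether counting used strand is not stated. In GENCODE's reference transcripts, 2.72% of HLA-B's 50-base windows and 5.38% of HLA-C's also occur in another gene. How the authors assigned reads between these genes is not given in the sources used here, so their separate values are uncertain.

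**Figure D1:**
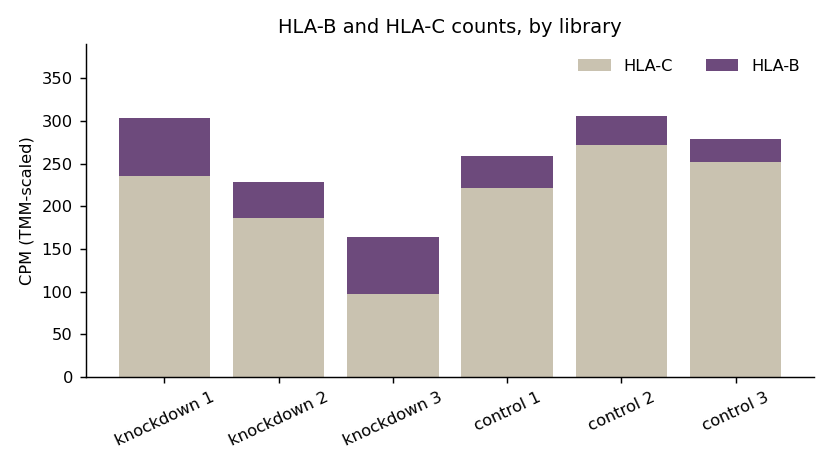
Stacked bars give the TMM-scaled CPM of HLA-C (light) and HLA-B (dark) in each library. HLA-B took 18.2% to 40.6% of the sum in the knockdown libraries, against 9.73% to 14.4% in the controls.

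Summed, HLA-B and HLA-C gave 303, 228 and 164 CPM in the knockdown libraries, against 259, 306 and 279 CPM in the controls. The sum was lowest in knockdown library 3 and the groups overlapped. The HLA-B share of the sum was 22.4%, 18.2% and 40.6% in the knockdown libraries, against 14.4%, 11.2% and 9.73% in the controls, so every knockdown share was above every control share. The share was chosen after the values were seen and was not tested.

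HLA-E, which presents leader peptides of other class I chains to natural killer receptors (ENSG00000204592, chromosome 6, 30489467 to 30494205, plus strand), was at 229, 188 and 215 CPM in the knockdown libraries, against 218, 269 and 247 CPM in the controls. Its groups overlapped, and its log2 fold change was -0.21 (standard error 0.13, edgeR adjusted p 0.449), with 0.01 on the TPM scale. HLA-F (ENSG00000204642, chromosome 6, 29722775 to 29738528, plus strand), a heavy chain with limited surface expression in most cells, was the lowest of the 9. It was at 6.15, 5.27 and 6.22 CPM in the knockdown libraries, against 5.05, 4.77 and 6.15 CPM in the controls, on 154 to 265 counts per library. Its log2 fold change was 0.14 (standard error 0.19, edgeR adjusted p 0.742). The antisense gene HLA-F-AS1 and other genes on the opposite strand cover 1236 of the 4342 exonic bases of HLA-F, and whether counting used strand is not stated, so its value is uncertain. HLA-F-AS1 itself had 3.93 ± 0.377 CPM in the knockdown and 3.05 ± 0.122 CPM in the control (SD, n = 3 each; edgeR adjusted p 0.382).

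B2M (ENSG00000166710, chromosome 15, 44711477 to 44718877, plus strand), the light chain shared by all these heavy chains, was the most variable of the 9 genes. It stood at 40.4, 241 and 49.6 CPM in the knockdown libraries against 37.0, 189 and 212 CPM in the controls, from 1531, 8201 and 2114 counts in the knockdown and 1382, 6107 and 8088 in the control. Knockdown libraries 1 and 3 and control library 1 lay between 37.0 and 49.6 CPM, and the other libraries between 189 and 241 CPM, so low and high values occurred in both groups. The means were 110 ± 113 CPM in the knockdown and 146 ± 95.1 CPM in the control (SD, n = 3 each). This gave a log2 fold change of -0.40, with standard error 0.77 and 95% interval -2.15 to 1.34 (edgeR adjusted p 0.830). It was -1.70 without knockdown library 2, -0.86 without control library 1 and between -0.04 and -0.18 without any 1 of the other 4 libraries. As a fold, the interval ran from 0.225 to 2.54, so these libraries do not tell a fall, no change or a rise within it apart.

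**Figure D2:**
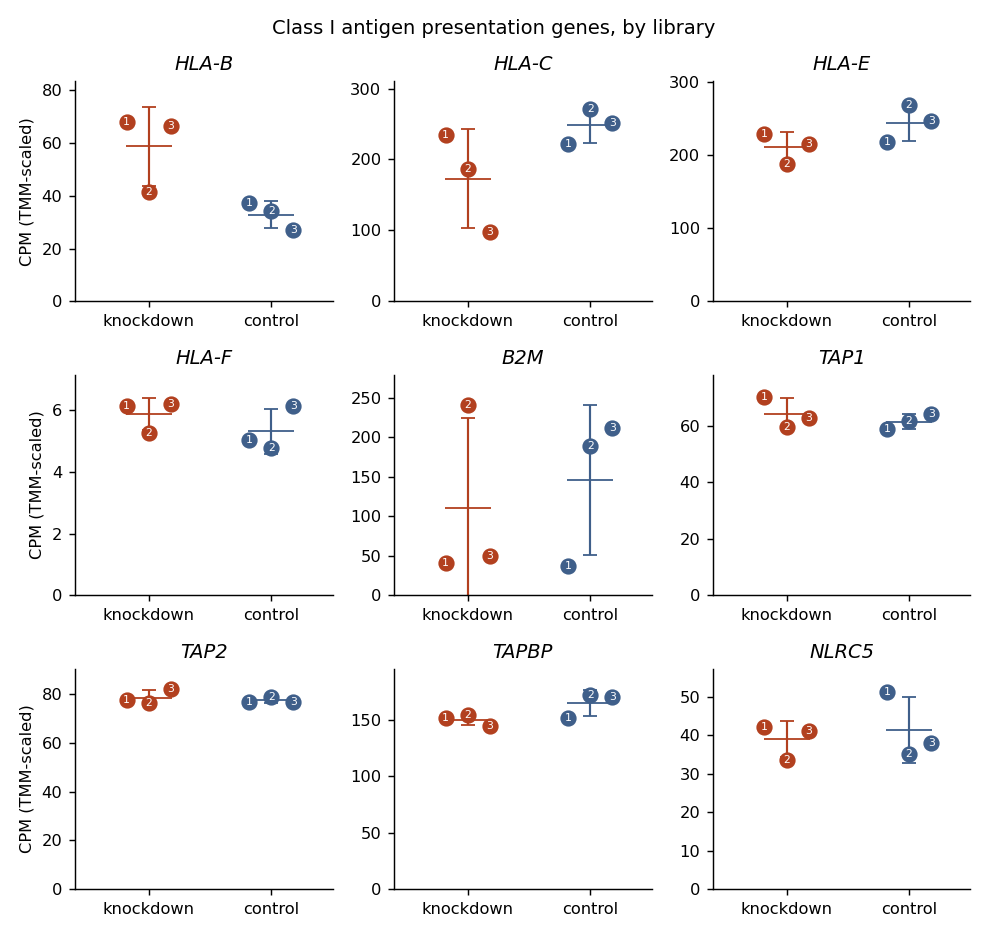
TMM-scaled CPM of each of the 9 genes, with a point for each library (its number inside) and a bar for the mean and SD of 3 libraries. The HLA-B groups do not overlap, B2M lies at 37.0 to 49.6 or at 189 to 241 CPM in each group, and TAP2 lies between 76.2 and 81.9 CPM in all libraries. The lower SD bar of B2M in the knockdown ends at the axis because the SD of 113 exceeds the mean of 110.

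The spread of B2M within groups was 1.41 on the log2 scale (pooled SD). This exceeded 99.8% of the 10271 genes of at least 10 CPM, whose median was 0.192. For TAP2 the same spread was 0.041, below that of all but 0.828% of genes. No exonic base of B2M overlaps another gene in GENCODE 29, and 0 of its 6412 distinct 50-base windows occur in a transcript of another gene. The libraries that were low for B2M were not low for HLA-E, which stayed between 188 and 269 CPM throughout.

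The length that a deposited count and FPKM imply for a gene also varied between libraries. For B2M it was 1373, 1067 and 1253 bases in the knockdown libraries, against 1309, 1068 and 1044 bases in the controls, shortest in the same libraries in which B2M counts were high. For HLA-B it was 1395, 1565 and 1390 bases in the knockdown libraries, against 1714, 1709 and 1770 bases in the controls, so that every knockdown library was below every control library. The share of all genes whose implied lengths separate the groups was not counted. The longest implied length over the shortest was 1.32 for B2M, 1.27 for HLA-B, 1.85 for TAP2 and 1.60 for NLRC5, beside a median of 1.14 over genes of at least 10 CPM. These lengths use the total of the table as the library size. Their part in the differences in level was not tested, and the B2M values are uncertain in CPM and TPM alike.

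**Figure D3:**
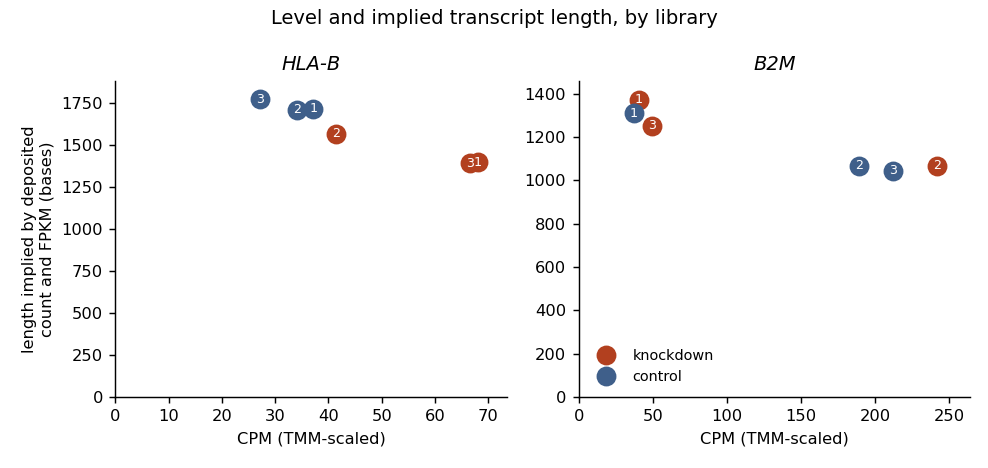
Each point is a library, with TMM-scaled CPM on the x axis and the length in bases implied by the deposited count and FPKM on the y axis, for HLA-B (left) and B2M (right). The 3 libraries of highest CPM had the 3 shortest implied lengths for both genes, within a range of 1390 to 1770 bases for HLA-B and 1044 to 1373 bases for B2M.

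TAP1 and TAP2 form the peptide transporter, and tapasin, encoded by TAPBP, holds empty class I molecules next to it. TAP1 (ENSG00000168394, chromosome 6, 32845209 to 32853978, minus strand) was at 70.3, 59.6 and 62.8 CPM in the knockdown libraries, against 58.6, 61.7 and 64.0 CPM in the controls. Knockdown library 1 was the highest and the rest overlapped. Its log2 fold change was 0.06 with a 95% interval of -0.21 to 0.34 (edgeR adjusted p 0.829), and -0.05 without knockdown library 1. TAP2 (ENSG00000204267, chromosome 6, 32821833 to 32838780, minus strand) was at 77.4, 76.2 and 81.9 CPM in the knockdown libraries, against 76.9, 78.6 and 76.7 CPM in the controls. All 6 libraries lay within 1.07-fold of each other, and the log2 fold change was 0.02 with a 95% interval of -0.23 to 0.27 (edgeR adjusted p 0.944), or -0.01 with DESeq2's size factors. TAPBP (ENSG00000231925, chromosome 6, 33299694 to 33314387, minus strand) was at 151, 154 and 145 CPM in the knockdown libraries, against 151, 172 and 170 CPM in the controls. Control libraries 2 and 3 were the highest, control library 1 lay among the knockdown libraries, and the log2 fold change was -0.13 with a 95% interval of -0.39 to 0.12 (edgeR adjusted p 0.585), or 0.11 on the TPM scale.

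Values of TAP2 carry an overlap too. The gene AL669918.1 shares 2064 of its 6390 exonic bases on the same strand, and 31.3% of TAP2's 50-base windows occur in another gene. AL669918.1 had 53, 0 and 78 counts in the knockdown libraries, against 113, 0 and 20 counts in the controls. TAP2 had 2536 to 3488 counts per library. PSMB8-AS1 covers 456 of 4805 exonic bases of TAP1 on the opposite strand and averaged 3.68 CPM in the knockdown and 3.27 CPM in the control.

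NLRC5 is the class I transactivator, which joins the factors on the X and Y boxes of class I promoters. NLRC5 (ENSG00000140853, chromosome 16, 56989485 to 57083531, plus strand) was at 42.2, 33.6 and 41.3 CPM in the knockdown libraries, against 51.3, 35.1 and 38.0 CPM in the controls. Control library 1 was the highest, knockdown library 2 the lowest, and the groups overlapped. The log2 fold change was -0.09 (standard error 0.18, edgeR adjusted p 0.841), or 0.03 when scaled by library size only. On the deposited TPM the order of libraries differed, with 22.9, 20.4 and 31.5 TPM in the knockdown and 37.9, 22.2 and 17.1 TPM in the control, and control library 3 moved from the middle to the lowest place.

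**Figure D4:**
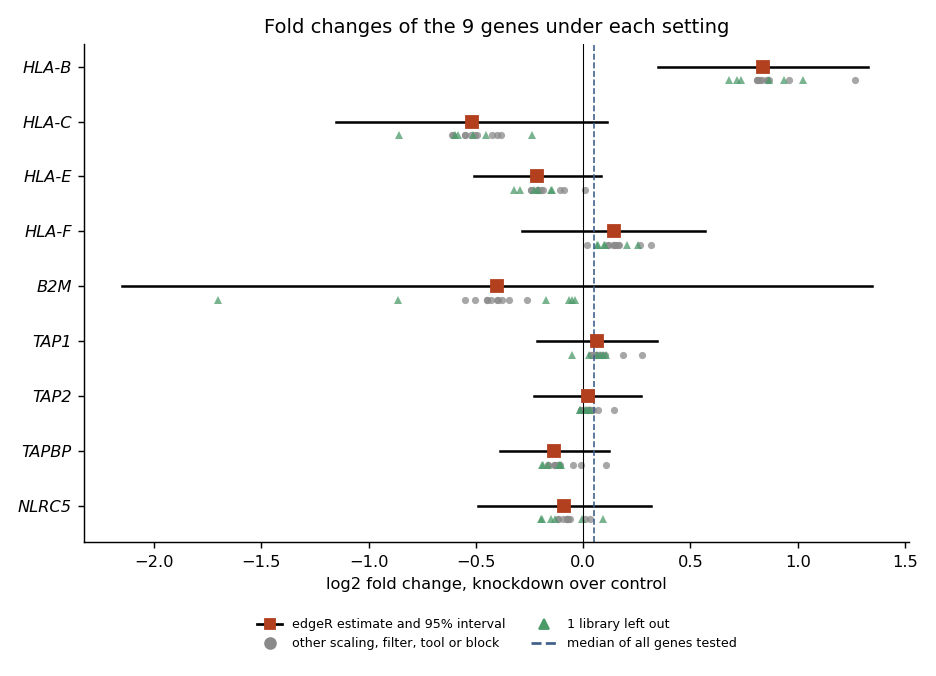
Log2 fold change of each gene, knockdown over control, with its 95% interval by edgeR (square and line), beside the values under other settings (grey) and with 1 library left out (green). Intervals of 8 genes include 0, and that of HLA-B runs from 0.35 to 1.33 although its adjusted p was 0.125.

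Levels between genes were compared on the deposited TPM, which is scaled by length. In knockdown libraries the order of mean TPM was B2M at 233 ± 267, HLA-C at 208 ± 77.0, HLA-E at 153 ± 9.79, HLA-B at 94.8 ± 27.2, TAPBP at 78.2 ± 4.65, TAP2 at 40.6 ± 10.6, TAP1 at 39.8 ± 1.51, NLRC5 at 24.9 ± 5.85 and HLA-F at 11.4 ± 1.88 (SD, n = 3). In control libraries it was B2M at 267 ± 185, HLA-C at 257 ± 12.0, HLA-E at 152 ± 5.62, TAPBP at 72.6 ± 4.18, TAP2 at 38.7 ± 4.47, HLA-B at 38.0 ± 7.18, TAP1 at 32.8 ± 2.23, NLRC5 at 25.7 ± 10.9 and HLA-F at 8.91 ± 1.15 TPM (SD, n = 3). HLA-B stood above TAPBP by mean in the knockdown and level with TAP2 in the control, but its knockdown SD of 27.2 TPM spans the TAPBP level. Neighbours whose SD ranges met were B2M and HLA-C, HLA-C and HLA-E, HLA-B and TAPBP, and TAP2 and TAP1 in the knockdown, and B2M and HLA-C, TAP2 and HLA-B, HLA-B and TAP1, and TAP1 and NLRC5 in the control. By library B2M had 65.4, 541 and 93.2 TPM in the knockdown, against 59.4, 328 and 415 TPM in the controls. In knockdown libraries 1 and 3 it was below HLA-C, HLA-E and HLA-B, so its first place by mean is not firm. In TPM, TAP1 had 41.5, 38.5 and 39.4 in the knockdown libraries, against 33.1, 30.5 and 34.9 in the controls, which do not overlap, unlike its CPM, and limma on log2(TPM + 1) gave it an adjusted p of 0.247. On that TPM scale the median gene was shifted upward by 0.16 (log2) relative to the count fit. The share of all genes whose groups do not overlap in TPM was not counted.

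Assembled molecules need light and heavy chains together. B2M TPM over the summed TPM of HLA-B, HLA-C, HLA-E and HLA-F was 0.119, 1.22 and 0.230 in the knockdown libraries, against 0.134, 0.712 and 0.894 in the controls. The summed heavy chains varied far less, with 551, 443 and 406 TPM in the knockdown libraries, against 444, 460 and 464 TPM in the controls, so the ratio followed B2M. The ratio was low in knockdown libraries 1 and 3 and control library 1, and the groups overlapped. The sum covers the 4 heavy chain genes named here, and the ratio, which carries the uncertainty of the B2M values, was not tested.

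Other genes of the pathway were read as lists. Of 5 interferon-inducible proteasome subunits and their PA28 activator genes (PSMB8, PSMB9, PSMB10, PSME1 and PSME2), which shape the peptides offered to class I, 0 of 5 passed the test and all 5 had a log2 fold change below 0, with a median of -0.20. Over all genes tested, 55.9% were above 0 in the count fit. On the TPM scale 4 of 5 were above 0, with a median of 0.01, beside 0.21 over all genes. PSME2 was at 165 ± 5.01 CPM in the knockdown and 190 ± 18.9 CPM in the control (SD, n = 3 each), with an edgeR adjusted p of 0.427. Its libraries did not overlap, with the knockdown lower, as for 10.8% of all genes. PSME1 was at 219 ± 15.8 CPM in the knockdown and 248 ± 24.7 CPM in the control. Of 8 genes for peptide trimming, editing and chaperones in the endoplasmic reticulum 0 passed, with a median of 0.03. Calnexin (CANX), which folds new heavy chains, was at 642, 560 and 629 CPM in the knockdown libraries, against 500, 440 and 502 CPM in the controls, a log2 difference of 0.34 (edgeR adjusted p 0.194). GANAB, a glucosidase that trims the sugars read by calnexin, was at 722, 585 and 653 CPM in the knockdown libraries, against 867, 843 and 847 CPM in the controls, a log2 difference of -0.38 (edgeR adjusted p 0.157). In CPM, CANX was above and GANAB below the controls in 3 of 3 knockdown libraries, as for 13.4% and 10.8% of all genes. Neither passed. CANX changed direction on the TPM scale (log2 difference -0.34), with implied lengths of 4836, 3142 and 4862 bases in the knockdown libraries, against 2247, 2266 and 2237 bases in the controls.

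Among 17 tested relatives and stress ligands, 0 passed and 12 were above 0, where 55.9% of all genes were above 0. ULBP1, a ligand of the activating natural killer receptor NKG2D, was at 8.93, 9.65 and 8.55 CPM in the knockdown libraries, against 5.86, 5.55 and 5.18 CPM in the controls. The groups did not overlap, with the knockdown higher, as for 13.4% of all genes. The log2 fold change of ULBP1 was 0.71 (edgeR adjusted p 0.0938, range over alternatives 0.0246 to 0.292). HLA-L, a class I pseudogene, was at 2.15 ± 0.421 CPM in the knockdown and 1.08 ± 0.0295 CPM in the control (SD, n = 3 each; edgeR adjusted p 0.125). Of 14 tested genes of the X and Y box factors and of MHC class II, 0 passed. HLA-DRB1 was at 3.56 ± 0.756 CPM in the knockdown and 2.21 ± 0.233 CPM in the control (SD, n = 3 each), and HLA-DOB at 2.91 ± 0.230 CPM in the knockdown and 2.07 ± 0.356 CPM in the control. The edgeR adjusted p was 0.214 for HLA-DRB1 and 0.322 for HLA-DOB. Of 10 genes that silence class I or remove it from the surface 0 passed. SUSD6, part of a complex that sends class I to lysosomes, was at 57.2 ± 6.20 CPM in the knockdown and 42.1 ± 1.77 CPM in the control (edgeR adjusted p 0.170), and the ubiquitin ligase gene MARCHF4 at 8.92 ± 1.76 CPM in the knockdown and 5.62 ± 0.995 CPM in the control (edgeR adjusted p 0.200).

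Interferon signalling lies upstream of class I, and 0 of its 22 tested genes passed, 16 being above 0 and the median 0.19 on the log2 scale. Over all genes tested, 55.9% were above 0 and the median was 0.05. With DESeq2 1 of the 22 rose, SOCS1 (adjusted p 0.0367), where 2.54% of all genes rose. With limma on log2(TPM + 1) 2 rose, SOCS1 and, at an adjusted p of 0.0321, IRF7, where 2.02% of all genes rose. SOCS1, the feedback inhibitor of JAK kinases, was at 3.51, 2.74 and 3.08 CPM in the knockdown libraries, against 1.90, 1.24 and 1.34 CPM in the controls (log2 fold change 1.06 and edgeR adjusted p 0.107). IRF7, the interferon-inducible amplifier of type I interferon, was at 19.5 ± 3.21 CPM in the knockdown and 12.2 ± 1.73 CPM in the control (log2 fold change 0.67, edgeR adjusted p 0.142). IRF1, an activator of class I genes, was named after its values were seen. IRF1 was at 42.5, 35.6 and 41.0 CPM in the knockdown libraries, against 29.7, 30.0 and 27.8 CPM in the controls, a log2 difference of 0.44 (edgeR adjusted p 0.170). For SOCS1, IRF7 and IRF1 every knockdown library was above every control library, as for 13.4% of all genes.

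Interferon genes themselves were too sparse for the filter, and those named here were picked after their counts were seen. IFNB1, which encodes interferon beta, had 8, 8 and 19 counts in the knockdown libraries, against 0 in each control library. That is 35 counts in all in the knockdown, against a floor of 3 counts summed over the controls, and with no filter its edgeR adjusted p was 0.108. IFNL1, a lambda interferon, had 0, 14 and 9 counts in the knockdown libraries, against 0 in each control library, and IFNG had 0 counts in all 6 libraries. The floor covers counting error only.

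Interferon-stimulated genes outside the class I pathway are set beside these genes because they answer to the same cytokines. Of 29 tested, 5 rose and 0 fell, where 1.1% of all genes rose. All 29, with a median of 0.40, had a log2 fold change above 0, as did 55.9% of all genes. The 5 were OAS2, IFI27, IFI44L, IFI44 and IFI6. OAS2, which makes the activator of RNase L, had 6.44, 7.48 and 6.04 CPM in the knockdown libraries, against 1.34, 1.39 and 0.890 CPM in the controls, a log2 difference of 2.46 (edgeR adjusted p 0.00411). IFI27, a mitochondrial protein gene, had 3.64, 4.12 and 4.86 CPM in the knockdown libraries, against 0.882, 0.992 and 0.785 CPM in the controls, a log2 difference of 2.25 (edgeR adjusted p 0.00513). For both genes every knockdown library was above every control library, as for 13.4% of all genes. IFI44L was at 3.91 to 9.86 CPM in the knockdown libraries, against 1.66 to 2.07 CPM in the controls, and IFI6 at 21.2 to 41.1 CPM in the knockdown libraries, against 10.2 to 13.7 CPM in the controls. With 1 library left out, 2 to 5 of the 29 rose (2 without knockdown library 3 or any 1 control library, 3 without knockdown library 2). With DESeq2 8 of the 29 rose, where 2.54% of all genes did, and 26 were above 0. The other 24 ran from 0.01 to 1.12 on the log2 scale. Of the class I genes 0 of 9 passed, with 4 of 9 above 0, but the difference between the lists was not tested.

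**Figure D5:**
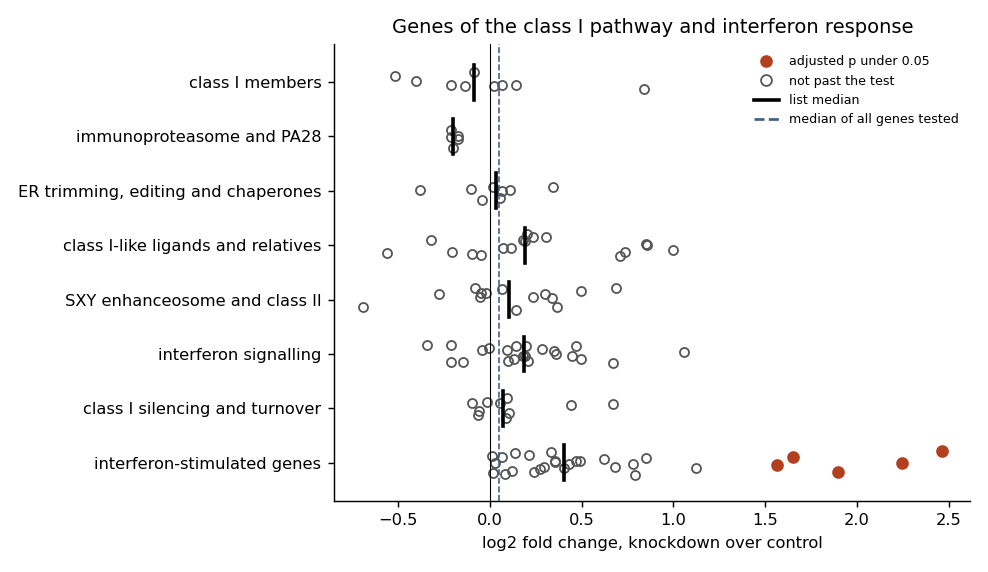
Log2 fold change of each tested gene in 8 lists, with filled points for genes past the edgeR adjusted p of 0.05, a black bar for the list median and a dashed line at the median of all tested genes, 0.05. Filled points are found in the list of interferon-stimulated genes, where 5 of 29 rose.

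By the smallest root mean square difference from the mean profile of the 9 genes over 6 libraries, the nearest of 10549 other genes were MED9 at 0.031, TSG101 at 0.032, PHLDA1 at 0.033, C1orf43 at 0.036 and TIMMDC1 at 0.043 log2 units. Single members lay farther from their own mean profile, from 0.060 for TAPBP to 1.09 for B2M. The named genes were picked for nearness among 10549 and the members were not, so this contrast cannot show whether they track class I. The mean profile also includes B2M, the most variable of the 9 genes, whose values are uncertain.

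Libraries held 32342017 to 40066223 counts in genes, and knockdown and control libraries fell apart on the first principal component (41.0% of variance). All 10 epithelial markers were at 1 CPM or more. Of 12 immune cell markers 3 reached 1 CPM, and MS4A1, TYROBP and CD2 were at 0 counts in every library. PTPRC had 27 counts in all in the knockdown and 21 in the control, and CD3E had 2 and 0. The 12 markers summed to 65.4 to 83.2 CPM in the knockdown and 61.8 to 73.8 CPM in the control libraries. Most of the 12 were thus below 1 CPM, and the sum is not a level shared by them. All 5 immune markers tested had a log2 fold change above 0, as did 55.9% of all genes, and 0 passed. The integrin gene ITGAM was at 3.57 ± 0.600 CPM in the knockdown and 1.99 ± 0.141 CPM in the control (SD, n = 3 each; edgeR adjusted p 0.132), and LST1 at 1.15 ± 0.244 CPM in the knockdown and 0.749 ± 0.0546 CPM in the control. Fibroblast markers summed to 41.1 to 61.1 CPM in the knockdown and 40.2 to 47.0 CPM in the control, with LUM at 0, and 1 of 3 tested, PDGFRB, rose to 6.38 ± 1.81 CPM in the knockdown, against 0.835 ± 0.183 CPM in the control (SD, n = 3 each; edgeR adjusted p 0.00502). Endothelial markers summed to 31.4 to 41.1 CPM in the knockdown and 20.8 to 37.3 CPM in the control, with 0 of 3 tested past the test. The labels name only PC9 cells, a single cell line, in every library. The source of the marker RNA and its part in the class I values were not tested. In bulk RNA, the number of cells that express a gene and the RNA per cell cannot be told apart.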

How the data were processed

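Per the labels' protocols, an Illumina Xten instrument was used, and the authors aligned quality-checked reads to a genome and took counts for each gene. No source used here names the aligner, the counter or the strand setting. The submitters' processing notes name hg19, but of 57836 genes shared with GENCODE 29 on GRCh38, 96.83% had the same chromosome, start and end, so printed coordinates match GRCh38. The deposited table gives whole-number counts, TPM and FPKM, both scaled by the authors. In it 27 gene symbols had become dates and were restored by gene ID.

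The filter was filterByExpr with its minimum count of 10. Counts were scaled by TMM and tested with edgeR 4.0.16 in R 4.3.3, with Benjamini-Hochberg adjustment over 19040 genes. Standard errors and 95% intervals came from the fold change and F statistic. CPM was computed on TMM-scaled library sizes. DESeq2 1.42.0 and limma 3.58.1 were alternatives, with a pseudocount of 1 TPM. TPM was used to compare levels between genes, for the B2M ratio and in that alternative, and FPKM for implied lengths and as an alternative in the ratio. In simulated data of 19040 genes for this comparison, 49.0% of 2-fold and 100% of 4-fold changes were recovered. The simulation used the same setting of spread for every gene. Libraries of the same group differed beyond sampling noise (chi-square over its degrees of freedom 29.9 to 74.0), and each counts as a sample. Members, lists and tests were chosen with earlier results of these data known. Named genes are the 9 members, list genes past the test or else the 2 of lowest p in a list, overlapping genes, the 5 nearest by profile, and those said to be chosen later. Lists were described by counts and medians. Promoters came from RefSeq (GRCh38.p14), and figures from matplotlib 3.10.9.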

Additional observations from a re-analysis of the deposited data

How the results depend on the processing

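Of 9 class I genes, 0 passed the test under 14 of 16 alternatives, and HLA-B alone passed with DESeq2 (1 gene) and with limma on log2(TPM + 1) (1 gene). SOCS1 also passed with both, IRF7 with limma on TPM and ULBP1 with DESeq2 and library size only. HLA-B, HLA-C, HLA-F and B2M kept the sign of their log2 fold change under all 16. HLA-E and TAPBP turned positive with TPM (0.01 and 0.11), TAP1 negative without knockdown library 1 (-0.05), TAP2 in 4 settings and NLRC5 in 3, none with a call. Against 223 genes past the test over the whole table, there were 147 with no filter, 141 with a stricter one, 701 with DESeq2, 397 with limma on TPM, 117 with the abundance trend removed and 64 to 114 with 1 library left out. The replicate number as a block gave 34 genes, 0 class I genes and 1 interferon-stimulated gene. Deviations of same-numbered libraries correlated at 0.01, -0.08 and -0.03. The labels do not say whether same-numbered libraries are paired, and these correlations cannot settle it. Leaving out 1 library gave 0 class I genes each time and a log2 difference in the B2M to heavy chain ratio of -1.41 to 0.27, against -0.45 with all libraries. Scaling by library size only shifted the median of all genes by 0.12, and TPM shifted it by 0.16. Under the first, the 9 genes ran from HLA-B at 0.96 to HLA-C at -0.40. The causes were not tested. The spread of 3 libraries per group limits what can be seen: 2-fold changes were recovered in 49.0% of simulated cases. That simulation used the same setting of spread for every gene. Within groups B2M, HLA-C and HLA-B spread more than 99.8%, 94.4% and 84.3% of genes of at least 10 CPM, so 49.0% need not hold for them.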
